A study of Homo sapiens with 6 samples.

Results

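The genes examined here are the semaphorins, their plexin and neuropilin receptors, the ephrins and Eph receptors, and the Slit, Robo, netrin and UNC5 genes. Within these families no measured value decided membership: every gene of both deposited tables with a matching symbol was taken, which gave 41 of 11679 genes. RNA came from 786-O cells, an established human line of clear cell renal cell carcinoma that lacks functional VHL. The 6 libraries formed 3 groups of 2: cells transfected with ALYREF siRNA5, cells transfected with ALYREF siRNA8, and cells transfected with a non-targeting siRNA as the control. All groups received DharmaFECT 1 and grew in RPMI medium with 10% FBS under atmospheric oxygen. They were moved to fresh medium at 24 h and harvested at 48 h after transfection. ALYREF is an adaptor that helps to load messenger RNA onto the nuclear export machinery. The groups are limited as a model in that they stand on 1 cell line, 1 control siRNA and 1 time point. Nothing in the labels says that duplicates came from separate cultures, so the spread behind every p-value may be technical.

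Guidance genes encode ligands and receptors that attract or repel growing axons and migrating cells, and many of them also act in blood vessels, epithelia and tumours. Semaphorins signal through plexins, and the secreted class 3 semaphorins generally need neuropilins as co-receptors, which also bind VEGF. Ephrins are anchored to the membrane and signal in both directions on contact with Eph receptor tyrosine kinases. Slits act through Robo receptors, and netrins act through DCC, neogenin and UNC5 receptors.

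Both siRNAs lowered their target. The level of ALYREF, rebuilt from the deposited mean and fold changes, was 437 normalized counts with siRNA5 and 604 with siRNA8, against 7711 in the control, so that 5.67% and 7.83% of the control level remained. Of 10 markers of renal tubule and clear cell carcinoma, 8 were in the tables, and their summed level was 70598 normalized counts with siRNA5 and 77136 with siRNA8, against 78455 in the control. CA9 and NDUFA4L2 were not among the rows. VIM, with a mean of 53093.5, held most of that sum. With siRNA5 and siRNA8, log2 fold changes were -0.18 and -0.18 for VIM, -0.55 and 0.33 for KRT8, and -0.07 and 0.68 for KRT18. They were -0.32 and 0.60 for CDH6, 0.26 and -0.11 for CDH2, and 0.33 and 0.53 for EPAS1. For PAX2 they were 0.61 and -0.01, and for PAX8 -0.05 and 0.39, per the authors' deposited tables. None of 7 endothelial markers was among the rows. The summed level was 175, 219 and 213 normalized counts for the immune marker in the tables (1 of 6), 76.9, 162 and 111 for the fibroblast markers (3 of 5), and 26.0, 43.2 and 27.8 for the neural markers (2 of 6), with siRNA5, with siRNA8 and in the control. In RNA of whole cultures, less RNA per cell and fewer cells that make it cannot be told apart.

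Values per library and the depth of each library are not given in the sources used here, so each gene is described by 1 mean per group. These group means were rebuilt from the authors' mean over all libraries and their 2 fold changes, and are in normalized counts. The same model predicted the deposited standard errors (SE) of siRNA8 from those of siRNA5 with a median ratio of 1.01, and the ratio lay between 0.968 and 1.08 for the 41 guidance genes. Their mean ranged from 15.0 to 6344 normalized counts, with a median of 235, and together they held 0.306% of the sum over all genes. For the 11 genes whose mean lay below 100, the median SE of a log2 fold change with siRNA5 was 0.47, against 0.15 for the next 20, and 0.057 for the 10 most abundant. All 41 had passed whatever filter preceded deposition, and the lowest mean of any gene in the tables was 11.6.

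Per kilobase of exon, the most abundant guidance gene with siRNA5 was SEMA4B, at 1876 normalized counts per kb, followed by EPHA2 at 1255, SEMA3C at 1177, SEMA7A at 1138 and PLXNB2 at 872. With siRNA8, EPHA2 and SEMA4B were level at 1140 and 1137 normalized counts per kb, above PLXNB2 at 829 and SEMA7A at 581, while SEMA3C stood at 202, below NRP2 at 375 and PLXNA1 at 238. In the control, SEMA4B stood at 1835 normalized counts per kb, EPHA2 at 912, PLXNB2 at 790, SEMA3C at 710 and SEMA7A at 411. The genes at the low end, among them SEMA3A, EFNA3, UNC5B and ROBO3, lay under 15 normalized counts per kb in every group.

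**Figure D1:**
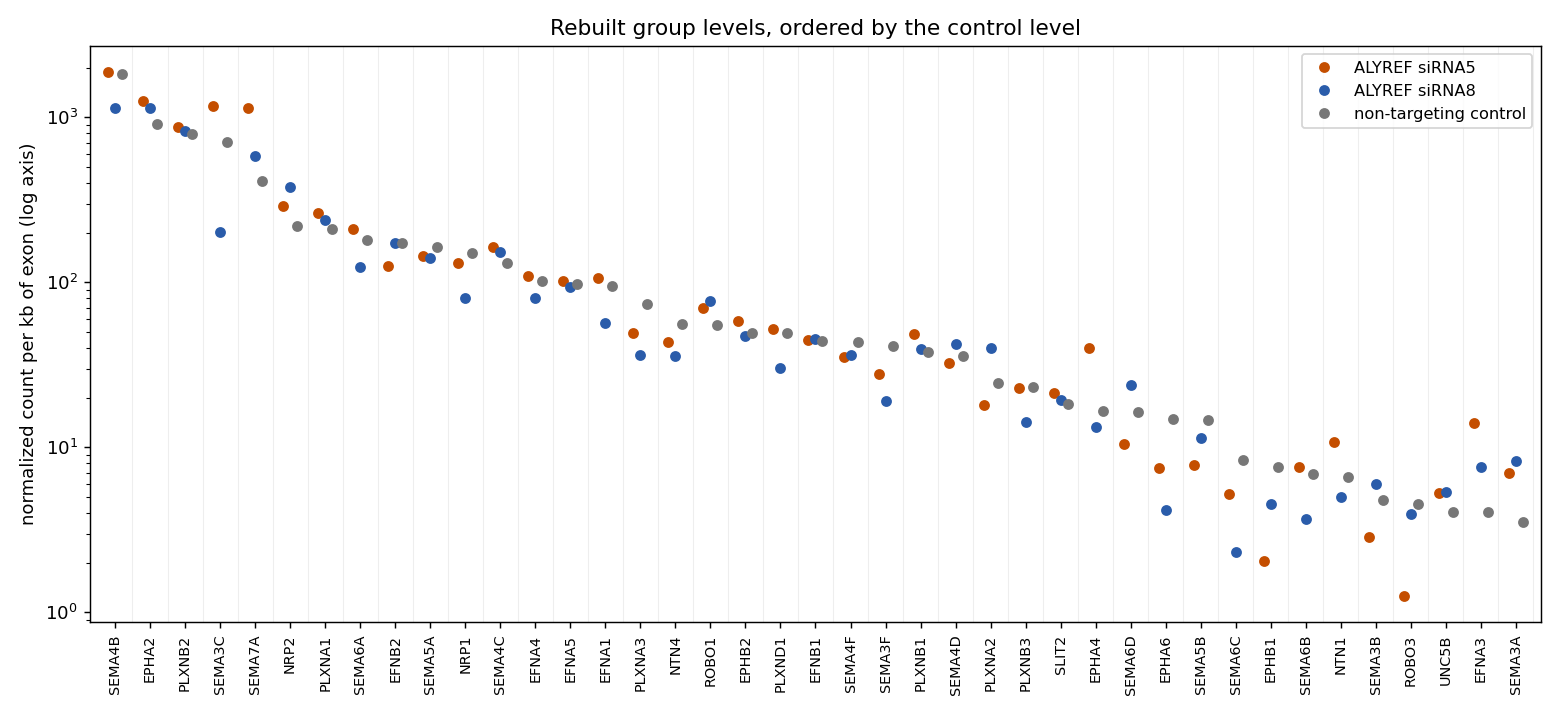
Group levels of the 41 guidance genes in normalized counts per kb of exon on a log axis, ordered from the highest to the lowest control level, with 1 point each for siRNA5, siRNA8 and the control. SEMA3C stands apart among the abundant genes, at 1177 with siRNA5 and 202 with siRNA8, against 710 in the control.

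With siRNA5, 24 of the 41 guidance genes passed the threshold, an adjusted p under 0.05 per the authors' deposited table, beside 46.4% of all genes. Of these, 14 rose, beside 24.4% of all genes, and 10 fell, beside 22.0% of all genes, and the median log2 fold change of the 41 was 0.08, beside 0.01 over all genes. With siRNA8, 20 of 41 passed, beside 41.5% of all genes: 8 rose, beside 21.0%, and 12 fell, beside 20.5%, with a median of -0.20, beside 0.01 over all genes. The shares of the guidance genes, 58.5% with siRNA5 and 48.8% with siRNA8, lie near those of all genes, and nothing particular to these families is read from them. With siRNA5, 5 of the 24 calls held under every alternative setting tried. With siRNA8, 10 of the 20 calls held under every setting that kept the gene, among them EPHA6, whose mean of 45.5 lies under both filters on low values.

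Direction was not shared across any family. Over all genes, 24.4% rose and 22.0% fell with siRNA5, and 21.0% rose and 20.5% fell with siRNA8. Of the 15 semaphorins, 5 rose, 3 fell and 7 had no call under siRNA5, and 3 rose, 5 fell and 7 had no call under siRNA8. Of the 9 plexins and neuropilins, 4 rose, 3 fell and 2 had no call under siRNA5, and 3 rose, 4 fell and 2 had no call under siRNA8. Of the 6 ephrins, 1 rose and 1 fell with siRNA5, and 0 rose and 1 fell with siRNA8. Of the 5 Eph receptors, 3 rose and 2 fell with siRNA5, and 1 rose and 1 fell with siRNA8. Of the 6 Slit, netrin and receptor genes, 1 rose and 1 fell with each siRNA. Taken by role, 6 of the 24 ligands rose and 4 fell with siRNA5, where 8 of the 17 receptors rose and 6 fell. With siRNA8, 3 ligands rose and 7 fell, and 5 receptors rose and 5 fell.

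**Figure D2:**
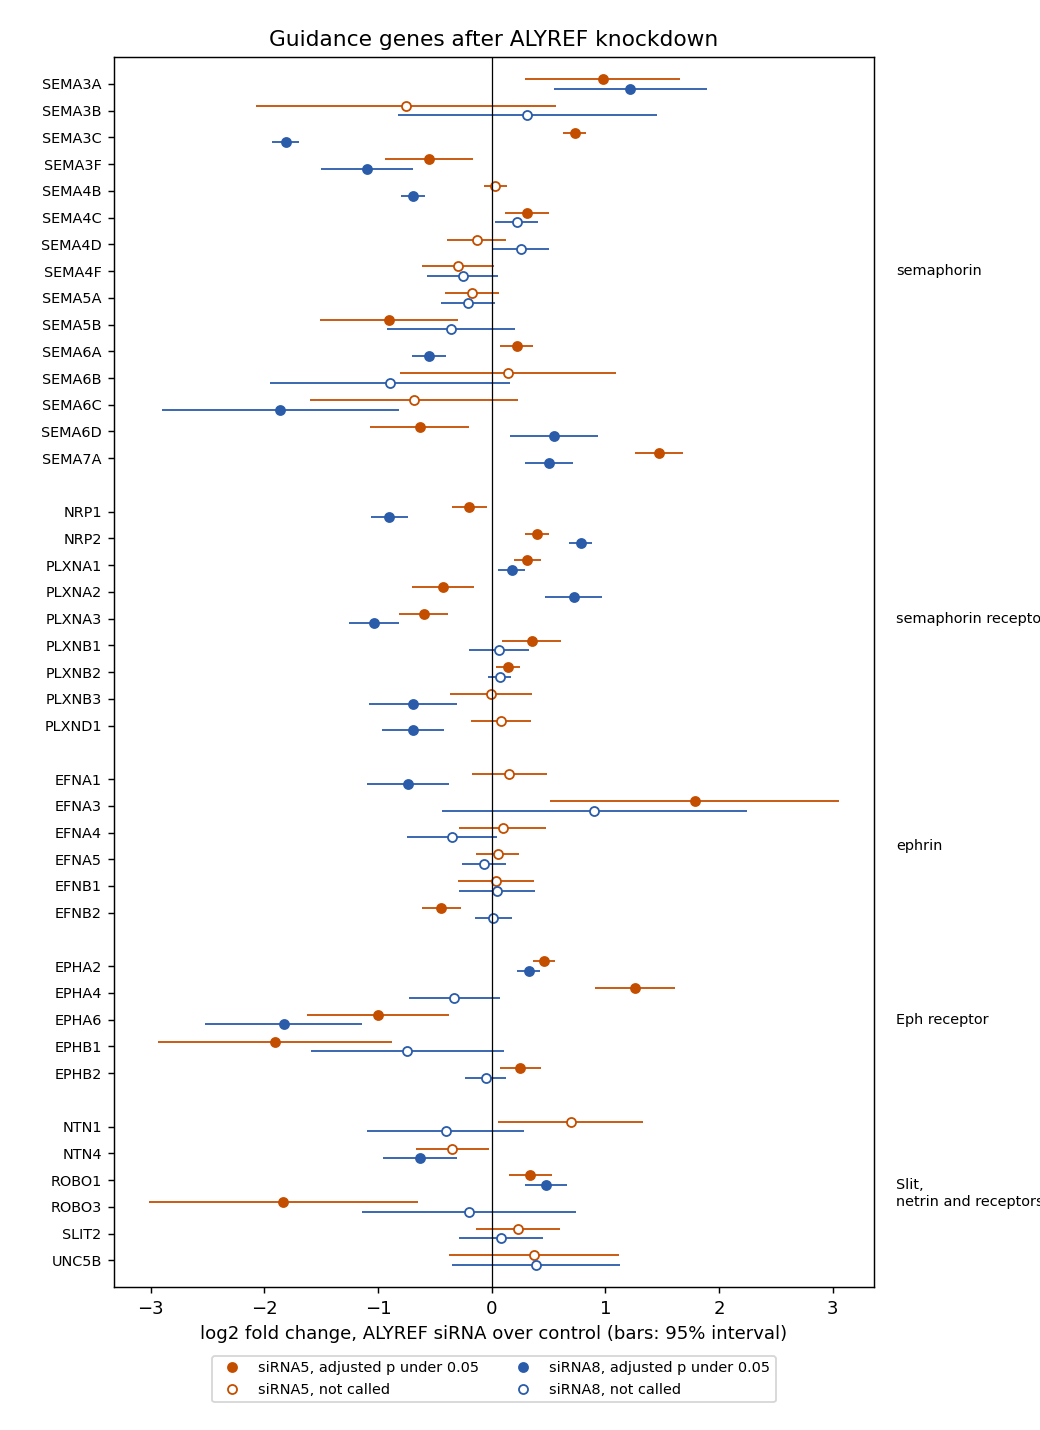
Log2 fold change of each guidance gene against the control with siRNA5 (orange) and siRNA8 (blue), with 95% intervals from the authors' standard errors and filled points for an adjusted p under 0.05. SEMA3C lies at 0.73 with siRNA5 and at -1.81 with siRNA8, and genes of every family lie on both sides of 0.

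SEMA3C, a secreted semaphorin that acts on migrating cells and has been linked to tumour growth, changed in opposite directions with the 2 siRNAs. Its level was 6200 normalized counts with siRNA5 and 1065 with siRNA8, against 3741 in the control, so 166% and 28.5% of the control. It rose 1.66-fold with siRNA5 (log2 0.73, SE 0.053, adjusted p = 3.35e-41) and fell 3.51-fold with siRNA8 (log2 -1.81, SE 0.060, adjusted p = 1.47e-197) per the authors' deposited tables. The difference between the siRNAs was 2.54 on the log2 scale (SE 0.080, adjusted p = 3.13e-218 by the normal test over all genes), the widest of the 41. The spread between libraries that the SE implies for SEMA3C was 3.36%. This value was rebuilt from the deposited SE and leaves out counting noise. It is not an observed spread, as no values per library are given.

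The other secreted semaphorins were much less abundant. SEMA3A, the classical axon repellent, stood at 57.8 normalized counts with siRNA5 and 68.5 with siRNA8, against 29.4 in the control. It rose with siRNA5 (log2 0.98, SE 0.35, adjusted p = 0.0136) and with siRNA8 (log2 1.22, SE 0.34, adjusted p = 0.0015) per the authors' deposited tables. SEMA3F, which signals through neuropilin-2 and lies in a part of 3p often lost in this cancer, stood at 114 normalized counts with siRNA5 and 78.6 with siRNA8, against 168 in the control. It fell with siRNA5 (log2 -0.56, SE 0.20, adjusted p = 0.0134) and with siRNA8 (log2 -1.10, SE 0.21, adjusted p = 1.04e-06) per the authors' deposited tables. SEMA3B, its neighbour on chromosome 3, had a mean of 15.0 and was not called, with 95% intervals of -2.07 to 0.57 with siRNA5 and -0.83 to 1.45 with siRNA8.

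Short 3′ UTR sequences were set beside these values because the siRNAs moved SEMA3C in opposite directions. Heptamers (7-base words, read on the transcript strand only) were ranked by a score, after UTR length and base composition were fitted. The score was the mean fold change of genes holding a word minus that of other genes, divided by its SE, lowest first. A word held by many genes could thus outrank one with a larger shift. The ranking used 9103 genes with a mean of at least 100 and left the guidance genes out. AACGCTG ranked first for siRNA5 and was held by 3.33% of these 3′ UTRs, and ACGCTGA, which shares 6 bases with it, ranked second and was held by 2.72%. For siRNA8, CTAGAAA ranked first and was held by 17.2%, and ACTAGAA, which also shares 6 bases with it, ranked second and was held by 12.6%. With siRNA8, the median log2 fold change of genes with CTAGAAA was -0.07, against 0.03 without it, and with siRNA5 that of genes with AACGCTG was -0.13, against 0.03 without it. The same genes ranked the heptamers, so both gaps follow from the ranking.

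SEMA3C holds 3 sites of the siRNA8 heptamers and none of the siRNA5 heptamers. The 30-base windows are from GENCODE 29 transcripts, written 5′ to 3′ on the transcript strand with the heptamer, or overlapping heptamers, in capitals. They are shown for the abundant guidance genes that fell with siRNA8, then for 3 that rose with it.
SEMA3C, UTR base 288, chr7:80744588-80744617, minus strand, GRCh38: gtggctgcaaaACTAGAAttgttgcatccc
SEMA3C, UTR base 1096, chr7:80743780-80743809, minus strand: gcttgttatgtCTAGAAAgtaagaaaacaa
SEMA3C, UTR base 2175, chr7:80742701-80742730, minus strand: cataaaattttCTAGAAAtacacttttttc
NRP1, UTR base 425, chr10:33179633-33179662, minus strand: gcccagaatatACTAGAAtcaccgcatttc
NRP1, UTR base 1651, chr10:33178407-33178436, minus strand: aatgaatgcttCTAGAAActtccagcggct
SEMA4B, UTR base 302, chr15:90228934-90228963, plus strand: ccaaatgtgaaACTAGAAtgagagggaaga
SEMA6A, UTR base 2485, chr5:116444110-116444139, minus strand: ttgaattttctCTAGAAAtgcagaaattag
SEMA3A, UTR base 2932, chr7:83958421-83958450, minus strand: ttcagatgggaACTAGAAAaactggagaga
SEMA6D, UTR base 2936, chr15:47773472-47773501, plus strand: gtgaaccaaatCTAGAAAgtaccaaggcag
SEMA7A, UTR base 46, chr15:74410560-74410589, minus strand: cagcccagggcACTAGAAcgtctcacactc

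A site did not fix the direction of a guidance gene. Of the 11 that hold a siRNA8 heptamer, SEMA3C, NRP1, SEMA4B and SEMA6A fell with siRNA8, SEMA3A, SEMA6D and SEMA7A rose, and SLIT2, UNC5B, EFNA5 and SEMA5A were not called. Of the 30 without one, 8 fell, 5 rose and 17 were not called. SEMA3A, with 3 sites, among them the joined 8-base word ACTAGAAA, had the highest log2 fold change of the 41 with siRNA8, and SEMA3C, also with 3, had the third lowest, after SEMA6C and EPHA6. Among the other genes, 37.3% of the 177 with 3 or more sites were called lower with siRNA8, beside 19.0% of the 7050 with none. The share was 41.2% of the 374 with 2 sites and 32.2% of the 1502 with 1. These genes also ranked the heptamers, so more lower calls among holders follow from that choice. The shares are not adjusted for UTR length. A log2 fold change at or below that of SEMA3C was rare throughout. It occurred in 0 of the 177, 2 of the 374, 3 of the 1502 and 4 of the 7050. The part of these sites in the change of SEMA3C was not tested, and the sequences of the siRNAs are not given in the sources used here. For siRNA5 the heptamers occur in SEMA5B, SEMA6A and SEMA6B, of which SEMA5B fell and SEMA6A rose.
SEMA5B, UTR base 257, chr3:122909868-122909897, minus strand: aacccactgtcACGCTGAcactatgctgcc
SEMA6A, UTR base 1494, chr5:116445101-116445130, minus strand: gacagcctgagAACGCTGggcagcaccaca

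**Figure D3:**
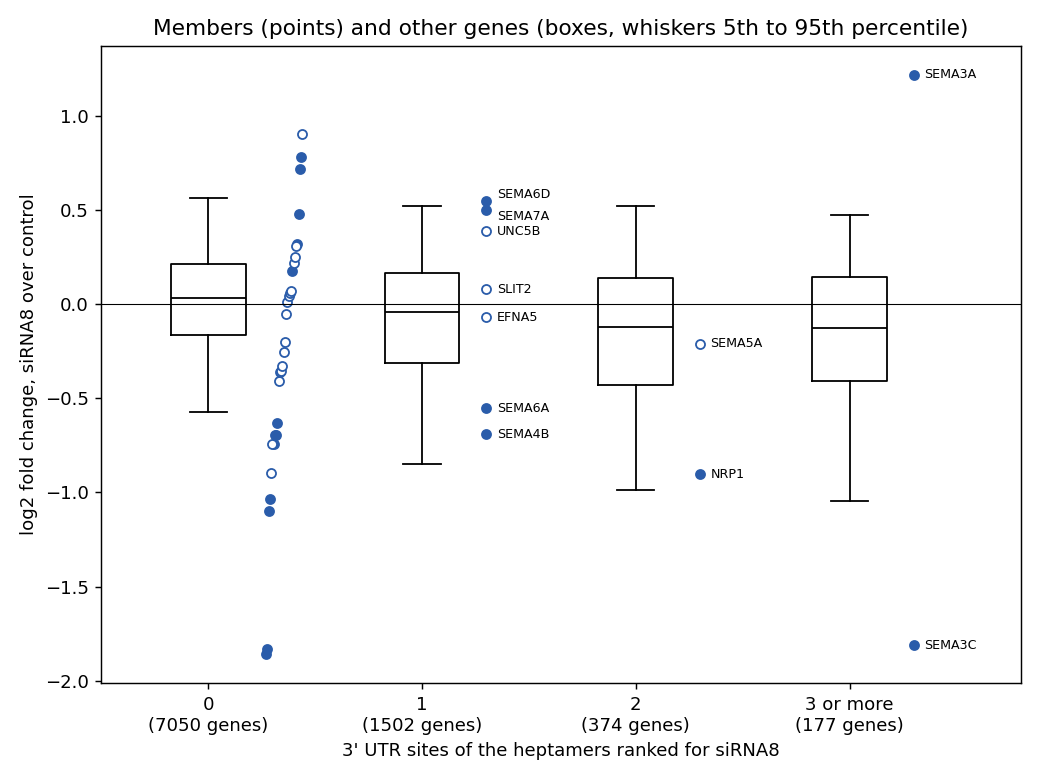
Log2 fold change with siRNA8 over the control by the number of 3′ UTR sites of the 2 heptamers ranked for siRNA8, for the guidance genes (points, filled where called) and for other genes (boxes from the lower to the upper quartile, whiskers from the 5th to the 95th percentile). The 2 guidance genes with 3 sites, SEMA3A and SEMA3C, lie at 1.22 and -1.81.

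Among the membrane-bound semaphorins, SEMA7A and SEMA4B showed large changes at high levels. SEMA7A, a GPI-anchored semaphorin that signals through plexin C1 and integrin beta-1, stood at 3973 normalized counts with siRNA5 and 2027 with siRNA8, against 1433 in the control. It rose 2.77-fold with siRNA5 (log2 1.47, SE 0.11, adjusted p = 3.24e-41) and 1.41-fold with siRNA8 (log2 0.50, SE 0.11, adjusted p = 2.16e-05) per the authors' deposited tables. The rise was larger with siRNA5 by 0.97 (SE 0.15, adjusted p = 2.85e-09). SEMA4B, a class 4 transmembrane semaphorin, stood at 7364 normalized counts with siRNA5 and 4463 with siRNA8, against 7204 in the control. It fell 1.61-fold with siRNA8 (log2 -0.69, SE 0.053, adjusted p = 1.22e-36) and was not called with siRNA5 (log2 0.03, SE 0.052, 95% interval -0.07 to 0.13) per the authors' deposited tables. The siRNA5 and control levels of SEMA4B lie close together, with siRNA8 alone below both. The siRNAs differed for SEMA4B by 0.72 (SE 0.075, adjusted p = 2.04e-20 by the normal test).

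The class 6 semaphorins, ligands of A-type plexins, split. SEMA6A stood at 1941 normalized counts with siRNA5 and 1139 with siRNA8, against 1670 in the control. It rose with siRNA5 (log2 0.22, SE 0.073, adjusted p = 0.00864) and fell with siRNA8 (log2 -0.55, SE 0.076, adjusted p = 6.37e-12) per the authors' deposited tables, the direction that SEMA3C took. SEMA6D did the reverse: it stood at 78.1 normalized counts with siRNA5 and 177 with siRNA8, against 121 in the control. It fell with siRNA5 (log2 -0.64, SE 0.22, adjusted p = 0.0110) and rose with siRNA8 (log2 0.55, SE 0.20, adjusted p = 0.0157) per the authors' deposited tables. By the normal test, the siRNAs differed by 0.77 for SEMA6A (SE 0.11, adjusted p = 8.85e-12) and by -1.18 for SEMA6D (SE 0.30, adjusted p = 0.000423). SEMA6C, scarce at 21.1 normalized counts with siRNA5 and 9.34 with siRNA8, against 33.9 in the control, fell with siRNA8 (log2 -1.86, SE 0.53, adjusted p = 0.0018) per the authors' deposited table. SEMA6B, with a mean of 24.0, was called with neither siRNA.

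Of the remaining semaphorins, SEMA4C, a ligand of plexin B2, rose with siRNA5 (log2 0.31, SE 0.097, adjusted p = 0.00439), and its log2 fold change with siRNA8 was 0.22 (SE 0.097, adjusted p = 0.0566) per the authors' deposited tables. SEMA5B stood at 44.2 normalized counts with siRNA5 and 64.5 with siRNA8, against 82.7 in the control. It fell with siRNA5 (log2 -0.90, SE 0.31, adjusted p = 0.00987) and was not called with siRNA8 (log2 -0.36, SE 0.29) per the authors' deposited tables. SEMA4D, the ligand of plexin B1, SEMA4F and SEMA5A were called with neither siRNA. Their log2 fold changes lay between -0.30 and 0.25 per the authors' deposited tables, and the intervals of SEMA5A, -0.41 to 0.06 with siRNA5 and -0.45 to 0.02 with siRNA8, leave room for a modest decrease.

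The neuropilins moved apart. NRP1 stood at 1422 normalized counts with siRNA5 and 874 with siRNA8, against 1634 in the control. It fell by 0.20 with siRNA5 (SE 0.079, adjusted p = 0.0262) and by 0.90 with siRNA8 (SE 0.083, adjusted p = 6.97e-26) on the log2 scale per the authors' deposited tables. NRP2 stood at 2958 normalized counts with siRNA5 and 3858 with siRNA8, against 2243 in the control. It rose 1.32-fold with siRNA5 (log2 0.40, SE 0.053, adjusted p = 1.1e-12) and 1.72-fold with siRNA8 (log2 0.78, SE 0.052, adjusted p = 1.55e-48) per the authors' deposited tables. Both neuropilins were further from the control with siRNA8: the siRNAs differed by 0.70 for NRP1 (SE 0.11, adjusted p = 1.33e-08) and by -0.38 for NRP2 (SE 0.075, adjusted p = 2.98e-06). Exons of both overlap an opposite-strand gene in GENCODE 29, as do those of 6 other guidance genes (PLXNA3, SEMA5A, SEMA6A, EFNB2, EPHA4 and EPHB2), and exons of EFNA3, EFNA4, PLXNB3 and SEMA3B overlap a gene of the same strand. The sources used here do not state whether reads were counted by strand.

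A-type plexins are signalling partners of the neuropilins, and the 3 of them among the 41 genes were called with both siRNAs. PLXNA1 stood at 2379 normalized counts with siRNA5 and 2162 with siRNA8, against 1915 in the control. It rose with siRNA5 (log2 0.31, SE 0.060, adjusted p = 1.37e-06) and with siRNA8 (log2 0.18, SE 0.060, adjusted p = 0.0116) per the authors' deposited tables, and the difference of 0.14 (SE 0.085, adjusted p = 0.221) was not called. That difference passed with the variance of the shared controls taken out (SE 0.060, adjusted p = 0.0445 by the normal test). PLXNA3 stood at 533 normalized counts with siRNA5 and 394 with siRNA8, against 807 in the control. It fell 1.51-fold with siRNA5 (log2 -0.60, SE 0.11, adjusted p = 3.07e-07) and 2.05-fold with siRNA8 (log2 -1.04, SE 0.11, adjusted p = 1.16e-18) per the authors' deposited tables. PLXNA3 was the single guidance gene with a call in the same direction with both siRNAs in a test for a change beyond 1.2-fold. The siRNAs differed for PLXNA3 by 0.44 (SE 0.16, adjusted p = 0.0203 by the normal test). PLXNA2 stood at 207 normalized counts with siRNA5 and 460 with siRNA8, against 279 in the control. It fell with siRNA5 (log2 -0.43, SE 0.14, adjusted p = 0.00564) and rose with siRNA8 (log2 0.72, SE 0.13, adjusted p = 2.1e-07) per the authors' deposited tables, with a difference of -1.15 (SE 0.19, adjusted p = 2.02e-08).

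The B-type plexins bind class 4 semaphorins, and plexin D1 is known as a semaphorin receptor of vessels. PLXNB2, the most abundant plexin here per kb of exon in each group, stood at 5579 normalized counts with siRNA5 and 5301 with siRNA8, against 5055 in the control. It rose by a small amount with siRNA5 (log2 0.14, SE 0.052, adjusted p = 0.0156) and was not called with siRNA8 (log2 0.07, SE 0.052) per the authors' deposited tables. PLXNB1 also rose with siRNA5 (log2 0.35, SE 0.13, adjusted p = 0.0191) and was not called with siRNA8 (log2 0.06, SE 0.13) per the authors' deposited tables. PLXND1 stood at 367 normalized counts with siRNA5 and 215 with siRNA8, against 347 in the control, and PLXNB3 at 146 and 90.9, against 147. Each fell with siRNA8, PLXND1 by 0.69 (SE 0.14, adjusted p = 5.28e-06) and PLXNB3 by 0.69 (SE 0.20, adjusted p = 0.0017) on the log2 scale per the authors' deposited table. With siRNA5 their log2 fold changes were 0.08 and -0.01 per the authors' deposited table, and the siRNAs differed by 0.77 for PLXND1 (SE 0.19, adjusted p = 0.000404) and by 0.69 for PLXNB3 (SE 0.27, adjusted p = 0.0373).

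EPHA2, an Eph receptor found in many carcinomas, was the most abundant gene of the ephrin system. It stood at 4974 normalized counts with siRNA5 and 4521 with siRNA8, against 3613 in the control. It rose 1.38-fold with siRNA5 (log2 0.46, SE 0.050, adjusted p = 5.79e-19) and 1.25-fold with siRNA8 (log2 0.32, SE 0.050, adjusted p = 1.13e-09) per the authors' deposited tables. EPHA4, a receptor that binds ephrins of both classes, stood at 264 normalized counts with siRNA5 and 87.9 with siRNA8, against 110 in the control. It rose 2.39-fold with siRNA5 (log2 1.26, SE 0.18, adjusted p = 3.36e-11) and was not called with siRNA8 (log2 -0.33, SE 0.20, adjusted p = 0.193) per the authors' deposited tables. The siRNAs differed for EPHA4 by 1.59 (SE 0.27, adjusted p = 7.45e-08), the next widest called difference after SEMA3C.

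The other Eph receptors were scarcer or changed less. EPHA6 stood at 38.2 normalized counts with siRNA5 and 21.5 with siRNA8, against 76.6 in the control. It fell with siRNA5 (log2 -1.0, SE 0.32, adjusted p = 0.0049) and 3.56-fold with siRNA8 (log2 -1.83, SE 0.35, adjusted p = 1.68e-06) per the authors' deposited tables. EPHB1 stood at 10.3 normalized counts with siRNA5 and 23.1 with siRNA8, against 38.6 in the control, and fell with siRNA5 (log2 -1.91, SE 0.52, adjusted p = 0.000981) per the authors' deposited table. EPHB2 stood at 705 normalized counts with siRNA5 and 572 with siRNA8, against 593 in the control. It rose with siRNA5 (log2 0.25, SE 0.091, adjusted p = 0.0155) and was not called with siRNA8 (log2 -0.05, SE 0.092) per the authors' deposited tables.

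Of the 6 ephrins, 3 were called with 1 of the siRNAs and none with both. EFNB2, the transmembrane ephrin known from arteries, stood at 632 normalized counts with siRNA5 and 869 with siRNA8, against 860 in the control. It fell with siRNA5 (log2 -0.44, SE 0.087, adjusted p = 1.93e-06) and was not called with siRNA8 (log2 0.01, SE 0.083) per the authors' deposited tables. EFNA1, a ligand of EPHA2, stood at 204 normalized counts with siRNA5 and 110 with siRNA8, against 183 in the control. It fell with siRNA8 (log2 -0.74, SE 0.18, adjusted p = 0.000284) and was not called with siRNA5 (log2 0.15, SE 0.17) per the authors' deposited tables. The siRNAs differed by -0.46 for EFNB2 (SE 0.12, adjusted p = 0.000829) and by 0.90 for EFNA1 (SE 0.25, adjusted p = 0.00184). EFNA3 rose with siRNA5 (log2 1.78, SE 0.65, adjusted p = 0.0154) per the authors' deposited table, at 25.0 normalized counts with siRNA5 and 13.6 with siRNA8, against 7.26 in the control. EFNA4, EFNA5 and EFNB1 were called with neither siRNA, and EFNA5, the best measured of them, had intervals of -0.14 to 0.24 with siRNA5 and -0.26 to 0.12 with siRNA8.

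Of the Slit and netrin systems, ROBO1, a receptor for Slits, was the best measured. It stood at 546 normalized counts with siRNA5 and 601 with siRNA8, against 432 in the control. It rose with siRNA5 (log2 0.34, SE 0.097, adjusted p = 0.00161) and with siRNA8 (log2 0.48, SE 0.096, adjusted p = 4.19e-06) per the authors' deposited tables, and the difference between the siRNAs was not called (-0.14, SE 0.14, adjusted p = 0.488). SLIT2, a ligand of ROBO1, was called with neither siRNA, with intervals of -0.14 to 0.60 with siRNA5 and -0.29 to 0.45 with siRNA8. NTN4, a netrin of basement membranes, stood at 160 normalized counts with siRNA5 and 131 with siRNA8, against 204 in the control. It fell with siRNA8 (log2 -0.63, SE 0.17, adjusted p = 0.000704), and its log2 fold change with siRNA5 was -0.35 (SE 0.16, adjusted p = 0.0719) per the authors' deposited tables. ROBO3 fell with siRNA5 (log2 -1.83, SE 0.60, adjusted p = 0.00684) per the authors' deposited table, at 6.36 normalized counts with siRNA5 and 19.8 with siRNA8, against 22.7 in the control. NTN1 and the netrin receptor UNC5B, with means of 44.4 and 33.5, were called with neither siRNA.

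The direct comparison of the siRNAs asked where knockdown of the same target gave different levels. Of the 41 guidance genes, 14 differed between siRNA5 and siRNA8, beside 32.0% of all genes. Of these, 10 were higher with siRNA5 relative to siRNA8 (SEMA3C, EPHA4, SEMA7A, EFNA1, PLXND1, SEMA6A, SEMA4B, NRP1, PLXNB3 and PLXNA3) and 4 were lower (SEMA6D, PLXNA2, EFNB2 and NRP2). The 11 genes with a mean under 100 gave no call in this comparison, and their intervals are the wide ones in the plot of differences. For the well-measured EPHA2 the difference was 0.14 (SE 0.070, adjusted p = 0.125), and for PLXNB2 it was 0.07 (SE 0.073, adjusted p = 0.491). The standard error used here counts the variance of the shared controls with each siRNA, although it cancels in the difference, and is an upper bound. With the control variance taken out 21 of the 41 differed, and the share of all genes was not counted in that setting. Those added were EPHA2 (SE 0.049, adjusted p = 0.0129 by the normal test), EPHB2, NTN1, PLXNA1, ROBO3, SEMA3F and SEMA4D. Of these, NTN1 and ROBO3 have means under 100. PLXNB2 was still not called (adjusted p = 0.242 by the normal test).

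**Figure D4:**
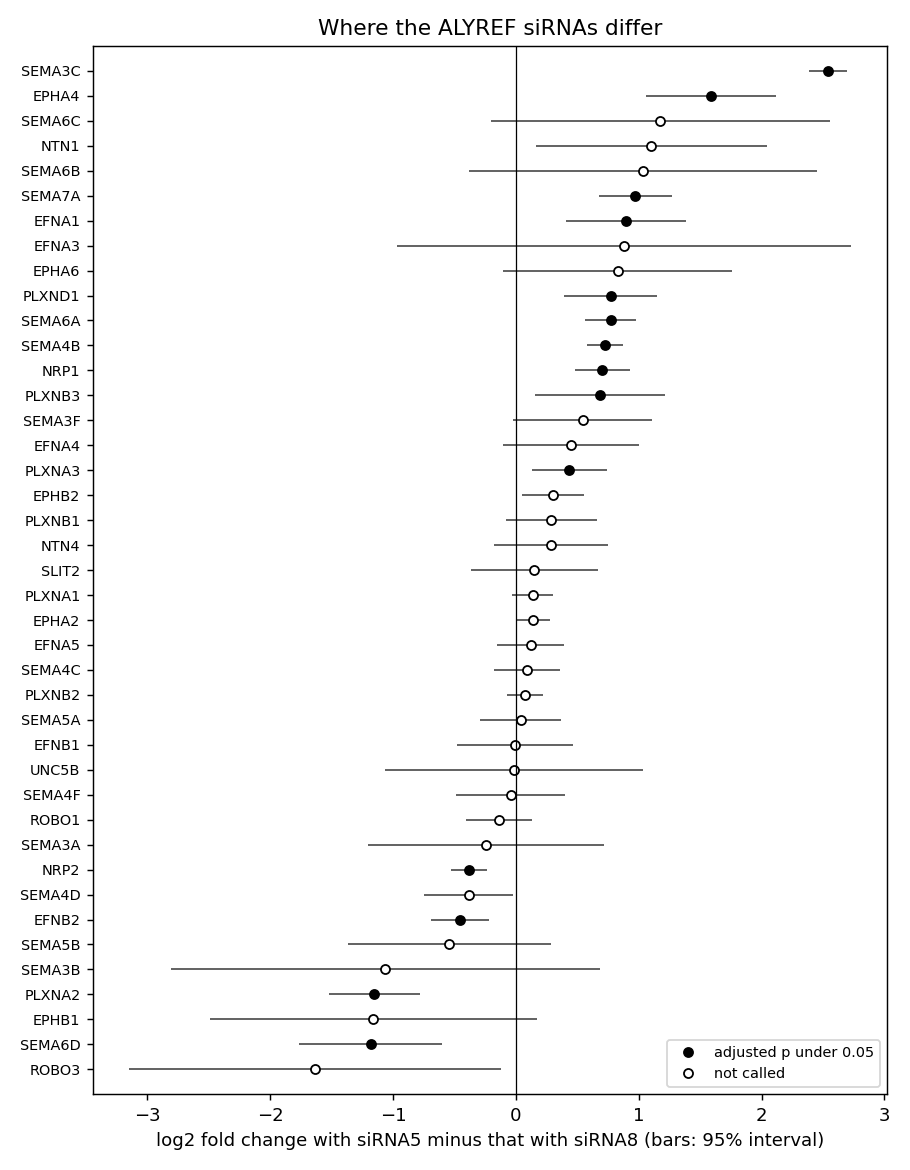
Log2 fold change with siRNA5 minus that with siRNA8 for each guidance gene, with 95% intervals and filled points for an adjusted p under 0.05. SEMA3C, at 2.54, and EPHA4, at 1.59, are the called genes farthest to the right, and SEMA6D, at -1.18, and PLXNA2, at -1.15, those farthest to the left.

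Because both comparisons use the same control libraries, calls with both siRNAs are given as a description. SEMA3A, SEMA7A, NRP2, PLXNA1, EPHA2 and ROBO1 rose with each siRNA, and SEMA3F, NRP1, PLXNA3 and EPHA6 fell with each, 10 of 41 beside 18.6% of all genes. SEMA3C, SEMA6A, SEMA6D and PLXNA2 were called in opposite directions, 4 of 41 beside 5.87% of all genes. For 11 of the 41, neither siRNA gave a call, beside 4268 of all 11679 genes.

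Some of these genes lie within a few megabases of each other, and values of some are given side by side with no test. EFNA4, EFNA3 and EFNA1 lie in that order on chromosome 1, 9.32 and 39.9 kb apart in GENCODE 29 (GRCh38), with log2 fold changes of 0.09, 1.78 and 0.15 with siRNA5 and -0.35, 0.90 and -0.74 with siRNA8 per the authors' deposited tables. SEMA3F and SEMA3B lie 78.5 kb apart on chromosome 3, where SEMA3F was called and SEMA3B was too imprecise to be set against it. SEMA3C and SEMA3A lie 3033 kb apart on chromosome 7, with log2 fold changes of -1.81 and 1.22 with siRNA8 per the authors' deposited table. PLXNB3 and PLXNA3 lie 679 kb apart on chromosome X and both fell with siRNA8. Further pairs on chromosome 3 were PLXNB1 and SEMA3F, 1725 kb apart, PLXNA1 and PLXND1, 2518 kb apart, and SEMA5B and PLXNA1, 3961 kb apart. SEMA6C lies 3917 kb from EFNA4 on chromosome 1.

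Other genes of these pathways were counted from 4 lists, to be read beside the 46.4% of all genes called with siRNA5 and the 41.5% called with siRNA8. Of 36 measured genes of semaphorin, plexin and neuropilin signalling, 9 rose, 7 fell and 20 had no call under siRNA5, and 8 rose, 7 fell and 21 had no call under siRNA8, with median log2 fold changes of 0.02 and 0.01. RND3, a GTPase that lowers actomyosin tension, rose with siRNA5 (log2 0.53, SE 0.065) and with siRNA8 (log2 1.02, SE 0.063), and PGF, a VEGF-family ligand, rose by 0.59 (SE 0.19) and 0.82 (SE 0.19) per the authors' deposited tables. VEGFC, a lymphatic growth factor that binds neuropilin-2, fell with siRNA5 (log2 -0.69, SE 0.11), and its log2 fold change with siRNA8 was -0.13 (SE 0.10) per the authors' deposited tables. CDK5, a kinase in semaphorin signalling, fell with siRNA5 (log2 -0.41, SE 0.14) and with siRNA8 (log2 -0.37, SE 0.14), and the sheddase ADAM17 rose by 0.54 (SE 0.068) and 0.28 (SE 0.069) per the authors' deposited tables. The growth factor VEGFB rose with siRNA8 (log2 0.53, SE 0.14) and with siRNA5 (log2 0.38, SE 0.14) per the authors' deposited tables. FARP2, an exchange factor bound to A-type plexins, fell with siRNA5 (log2 -0.58, SE 0.13), and the small GTPases RRAS (log2 -0.36, SE 0.13) and RAP1B (log2 -0.27, SE 0.078) fell with siRNA8 per the authors' deposited tables.

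Of 40 measured genes of ephrin signalling, 14 rose, 8 fell and 18 had no call under siRNA5, and 9 rose, 8 fell and 23 had no call under siRNA8, beside 46.4% and 41.5% of all genes called, with medians of 0.11 and -0.01. ADAM10, a protease that cleaves ephrins, rose with siRNA5 (log2 0.99, SE 0.046) and did not pass with siRNA8 (adjusted p = 0.961) per the authors' deposited tables. The adaptor SHC1 fell with siRNA5 (log2 -0.74, SE 0.050) and with siRNA8 (log2 -0.44, SE 0.048), and the kinase YES1 rose with siRNA5 (log2 0.30, SE 0.061) and fell with siRNA8 (log2 -0.70, SE 0.064) per the authors' deposited tables. PAK1, a kinase downstream of Rac and CDC42, rose with siRNA8 (log2 0.64, SE 0.073) per the authors' deposited table. MMP2, a matrix protease, fell with siRNA5 (log2 -1.18, SE 0.10) and with siRNA8 (log2 -0.32, SE 0.091) per the authors' deposited tables. With siRNA5, the ubiquitin ligase CBL (log2 0.60, SE 0.076) and the exchange factor ITSN1 (log2 0.43, SE 0.072) rose and the cofilin kinase LIMK1 (log2 -0.40, SE 0.063) fell per the authors' deposited tables. With siRNA8, the G-protein regulator RGS3 (log2 0.62, SE 0.074) and the Rap regulator SIPA1L1 (log2 0.53, SE 0.12) rose and the kinase PAK2 (log2 -0.44, SE 0.049) fell, and PAK2 rose with siRNA5 (log2 0.16, SE 0.047) per the authors' deposited tables. RGS3 also rose with siRNA5 (log2 0.32, SE 0.076), and ITSN1 also rose with siRNA8 (log2 0.21, SE 0.072) per the authors' deposited tables.

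Of 28 measured genes of Slit and Robo signalling, 10 rose, 6 fell and 12 had no call under siRNA5, and 9 rose, 5 fell and 14 had no call under siRNA8, beside 46.4% and 41.5% of all genes called, with medians of 0.06 and -0.04. CDC42, a GTPase lowered by Slit signalling through the srGAP proteins, rose with siRNA5 (log2 0.18, SE 0.048) and fell with siRNA8 (log2 -0.83, SE 0.050) per the authors' deposited tables. USP33, a deubiquitinase that acts on Robo, rose by 0.36 with each siRNA (SE 0.077 and 0.076) per the authors' deposited tables. With siRNA5, the matrix receptor DAG1 (log2 0.51, SE 0.076) and the heparan sulfate carriers SDC3 (log2 0.41, SE 0.075) and SDC2 (log2 0.38, SE 0.065) rose per the authors' deposited tables. SDC2 also rose with siRNA8 (log2 0.31, SE 0.064) per the authors' deposited table. The actin regulators VASP (log2 -0.51, SE 0.064) and CAP2 (log2 -0.29, SE 0.088) fell with siRNA5, and VASP rose with siRNA8 (log2 0.31, SE 0.061) per the authors' deposited tables. HOXA2, a transcription factor, fell with siRNA5 (log2 -0.62, SE 0.22) and with siRNA8 (log2 -0.69, SE 0.21) per the authors' deposited tables. With siRNA8, the syndecan SDC4 fell (log2 -0.59, SE 0.056) and the kinase ABL1 rose (log2 0.32, SE 0.052) per the authors' deposited tables. SDC4 also fell with siRNA5 (log2 -0.14, SE 0.055) per the authors' deposited table.

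Of 31 measured genes of netrin signalling, 13 rose, 7 fell and 11 had no call under siRNA5, and 10 rose, 5 fell and 16 had no call under siRNA8, beside 46.4% and 41.5% of all genes called, with medians of 0.12 and -0.03. NTNG1, a membrane-anchored netrin relative, fell with siRNA5 (log2 -1.57, SE 0.18), and its log2 fold change with siRNA8 was 0.21 (SE 0.14) per the authors' deposited tables. TUBB3, a neuronal beta-tubulin also found in tumours, fell with siRNA5 (log2 -0.82, SE 0.058) and with siRNA8 (log2 -1.27, SE 0.060), and the netrin-pathway ligase TRIM9 rose with siRNA5 (log2 0.46, SE 0.11) and fell with siRNA8 (log2 -0.92, SE 0.12) per the authors' deposited tables. ITGA6, a laminin-binding integrin, rose with siRNA5 (log2 0.50, SE 0.060) and with siRNA8 (log2 0.65, SE 0.060) per the authors' deposited tables. The adenosine receptor ADORA2B fell with siRNA5 (log2 -0.68, SE 0.21) per the authors' deposited tables. With siRNA8, the neogenin ligand RGMB (log2 0.45, SE 0.13) and the phospholipase PLCG1 (log2 0.44, SE 0.056) rose and the ubiquitin ligase SIAH2 (log2 -0.47, SE 0.093) fell per the authors' deposited tables. With siRNA5, RGMB fell (log2 -0.54, SE 0.14) and SIAH2 rose (log2 0.21, SE 0.088) per the authors' deposited tables. Counted once each, 46 of the 125 measured genes of the 4 lists rose and 26 fell with siRNA5, and 33 rose and 25 fell with siRNA8, beside 24.4% and 22.0% of all genes with siRNA5 and 21.0% and 20.5% with siRNA8. The medians were 0.08 and -0.01, beside 0.01 over all genes in each comparison.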

How the data were processed

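Polyadenylated RNA was selected in 2 rounds with poly-dT beads, made into directional libraries and read as paired ends of 42 nt, per the labels' protocols. The submitters' processing notes name STAR, Picard, HTSeq, DESeq2 and hg19, with no versions or settings. The files were 2 tables of results of 11681 rows each, 1 per siRNA, of which 11679 name a gene. Reads without a feature held 6.23% and ambiguous reads 1.62% of the summed means and were left out. Each row's signal, per the file headers, is a mean normalized count, taken here to cover all 6 libraries. The fold changes and their SE are log2 values per the file headers. The Wald score is their ratio per the file headers, which was checked. The authors' deposited p-values match a Benjamini-Hochberg adjustment over the whole table. The direction was read from ALYREF, and each table was assigned by the siRNA number in its name and in the titles. A fit on counts had been planned, and with no counts per library the authors' fit stands in its place. A call is an adjusted p under 0.05.

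Group means were rebuilt on the assumption of 2 libraries per group and fold changes that were not shrunk. To compare the siRNAs, the difference of their log2 fold changes was divided by the root of the sum of both squared SE, with a normal two-sided p adjusted over 11679 genes. This and the heptamer ranking were tested on simulated data. Exon lengths, 3′ UTRs (the longest per gene) and positions came from GENCODE 29 on GRCh38, another build than the authors' hg19. Heptamers held by at least 100 genes were ranked, and the first 2 per siRNA kept. The guidance genes, the lists and the tests were chosen with earlier results of these data known. Full values are given for genes called with both siRNAs, for those whose siRNAs differ, for the 4 largest called rises and falls per siRNA, for SEMA3C, and for up to 3 rises and 3 falls per pathway list with a mean of at least 100. A gene that this rule selects is not reported here. Alternatives were a threshold of 0.01, filters at a mean of 50 or 100, median centring, Holm adjustment and a test beyond 1.2-fold. Python 3.11.15, numpy 2.4.6, pandas 2.3.3 and scipy 1.17.1 were used.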

Additional observations from a re-analysis of the deposited data

Results flagged for a closer look

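The 4 guidance genes called in opposite directions with the 2 siRNAs, with a difference that also passed the test, are set out for a closer look. The log2 fold change with siRNA5 minus that with siRNA8 was 2.54 for SEMA3C and 0.77 for SEMA6A, both higher with siRNA5. It was -1.18 for SEMA6D and -1.15 for PLXNA2, both lower with siRNA5. Only SEMA3C kept both of its calls under every setting tried. The siRNA5 calls of SEMA6A and PLXNA2 ended under Holm adjustment and beyond 1.2-fold, and both calls of SEMA6D ended there and at a threshold of 0.01. SEMA3C, SEMA6A and SEMA6D hold 3′ UTR heptamers ranked for siRNA8, 3 sites in SEMA3C and 1 in each of the others, and PLXNA2 holds none. Their part in these differences was not tested.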

How the results depend on the processing

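Of the 24 siRNA5 calls, 8 remained in number under Holm adjustment and 6 in the test beyond 1.2-fold, and of the 20 siRNA8 calls, 13 and 12. The 10 calls in the same direction with both siRNAs came to 6 at a threshold of 0.01, 4 under Holm adjustment and 1 beyond 1.2-fold. The 14 differences between the siRNAs came to 8 under Holm adjustment and 21 with the control variance taken out. Shares of all genes were not counted under these alternatives, so their counts have no background beside them. Without the members that hold a heptamer, an alternative chosen after seeing the data that leaves 28 genes, the counts were 17 with siRNA5, 13 with siRNA8, 7 with both and 8 between the siRNAs, where fewer genes were counted. The filters and median centring kept each of these counts within 1.5 times. No fold change of a guidance gene changed sign under median centring. No paired analysis was possible because the columns hold no values per library, and for the same reason leaving out each replicate, edgeR and a new DESeq2 fit were not run. Precision is limited below a mean of 100, where 11 of the 41 genes lie.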
